A study of Mus musculus with 4 samples.

Results

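Fos, Fosb, Fosl2, Jun, Junb, Atf3 and Maff encode AP-1 family transcription factors. These 7 genes were chosen, by symbol, from among the 230 genes of a table, so their presence in it is not a result. The table holds FPKM values, which scale sequenced fragments by transcript length and library size, of brain RNA from C57Bl/6 mice of 6 weeks of age. There were 4 libraries, 1 for each condition: tau+/+ mice given sham injection (vehicle in the study's text), tau+/+ mice given 50 mg/kg pentylenetetrazole (PTZ) intraperitoneally, and tau-/- mice treated in either way. PTZ blocks inhibitory GABA receptors and provokes seizures, and RNA was taken 1 h after injection. Tau-/- mice are deficient in the microtubule-associated protein tau. Seizure severity was matched among the PTZ mice that were sequenced, and how many mice each library holds was not stated in the sources used here. The labels name brain as the source but also describe primary neurons, and 0 of 5 neuronal markers were in the table, so the tissue could not be checked from neuronal genes. Mapt, which encodes tau, was not analysed here, and the genotypes rest on the labels.

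The study describes the table as genes that differed between tau+/+ vehicle and tau+/+ PTZ and whose response was absent or milder in tau-/-. Not every gene follows this in the FPKM values. For Zfp36l2, log2 of PTZ over vehicle was 0.75 in tau+/+ and 1.04 in tau-/-. Despite such genes, the choice of the table drew on the responses of both genotypes. Neither response is free of that choice, so both, with their shares of the table, are given here as descriptions. Each condition has 1 library, so replicate error is unknown, no difference was tested, and fewer cells that express a gene cannot be told apart from less RNA per cell. The markers of choroid plexus epithelium differed strongly between the libraries. Summed over the 10 of 15 such markers that were in the table, tau+/+ libraries held 1572 FPKM with vehicle and 2614 FPKM with PTZ, and tau-/- libraries 1155 FPKM and 37.9 FPKM. All 10 were lower by over 1.5-fold after PTZ in tau-/-, as were 16.5% of the table with these 10 included, and their part in the values of the AP-1 genes in that library was not tested. The 3 of 9 endothelial markers in the table summed to 8.74 and 20.9 FPKM in tau+/+ and to 9.28 and 13.2 FPKM in tau-/-, with vehicle and PTZ in turn. Of these sums, Klf2 held 6.21 and 11.9 FPKM in tau+/+, and 5.97 and 7.69 FPKM in tau-/-. Klf2 is also counted below among other activity-induced transcription factors, and Apold1, another of the 3, is described below as an early response gene. The 5 of 8 markers of meninges and perivascular fibroblasts summed to 15.9 and 26.2 FPKM in tau+/+ and to 16.7 and 10.97 FPKM in tau-/-. The astrocyte marker Fabp7 (1 of 5 in the table) was at 27.2 and 41.9 FPKM in tau+/+ and at 24.1 and 27.5 FPKM in tau-/-, and 2 of 6 microglial markers summed to 1.95 and 4.25 FPKM and to 3.06 and 2.89 FPKM. The part of these cell types in the results was not tested either.

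AP-1 is a family of paired DNA-binding proteins with a basic region that contacts DNA and a leucine zipper that joins the partners. Fos proteins cannot pair with themselves and bind DNA mainly as partners of Jun proteins, whereas Jun proteins also pair with each other. Atf3 pairs with itself or with Jun proteins, and small Maf proteins such as Maff lack a transactivation domain and act through their partners. In neurons, several of these genes are immediate-early genes (IEGs), which are transcribed within minutes of strong synaptic activity through factors already present, such as CREB at cAMP response elements (CREs) and serum response factor at CArG boxes.

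The bases upstream of the start sites are shown because the members share a stimulus and because the core of the CRE, TGACG, was found upstream of most of them. RefSeq windows on GRCm38.p6, from 250 bases before to 50 bases after a start site, were available for all 7 genes, with 3 start sites for Maff and 9 windows in all. On either strand, 6 of the 9 windows held TGACG, as did 20.8% of all 32851 mouse windows. The genes with the core were Fos, Fosb, Junb, Atf3 and Maff. The full element TGACGTCA, which contains the core on both strands, was found in 1 of the 9 windows, at the second start site of Maff, and in 1.79% of all windows. The variant TGACATCA, which was searched after the sequences had been seen, was found 45 bases before the start of Jun and before the third start of Maff, and in 3.62% of all windows. The AP-1 element TGANTCA was in 0 of the 9 windows and in 7.81% of all windows, and the CArG box was in 0 of the 9 and in 1.63% of all. Bases beyond the windows were not searched, so a count of 0 does not mean that a gene lacks the element. In the windows found for the table that the members come from, the shares were 38.6% for TGACG, 5.58% for TGACGTCA, 2.58% for TGACATCA, 3.86% for TGANTCA and 3.43% for the CArG box, the first, the second and the last above the genome-wide share and the others below it. Of its 230 genes 174 had a window (75.7%), short of the 80% set as the least for a comparison of this kind, so a check of the members against the table is void and nothing particular to the members is read from the genome-wide shares. Matches are descriptions of letters and not of binding. The 130 bases before the start site follow, 5′ to 3′ on the strand of the gene, with TGACG, TGACGTCA and TGACATCA (or CGTCA where the core lies on the opposite strand) in capitals. Maff is shown at its second start site, the only 1 of its 3 with the full element.
Fos, chr12:85473760-85473889, plus strand: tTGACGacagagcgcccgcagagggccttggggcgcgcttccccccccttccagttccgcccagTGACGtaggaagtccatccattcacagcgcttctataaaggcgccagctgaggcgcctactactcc
Fosb, chr7:19310046-19310175, minus strand: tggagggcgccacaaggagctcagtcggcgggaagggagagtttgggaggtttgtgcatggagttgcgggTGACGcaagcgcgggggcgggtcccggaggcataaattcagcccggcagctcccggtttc
Junb, chr8:84978749-84978878, minus strand: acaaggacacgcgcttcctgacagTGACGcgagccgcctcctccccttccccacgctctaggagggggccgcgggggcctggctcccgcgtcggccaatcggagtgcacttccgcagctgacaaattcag
Atf3, chr1:191183334-191183463, minus strand: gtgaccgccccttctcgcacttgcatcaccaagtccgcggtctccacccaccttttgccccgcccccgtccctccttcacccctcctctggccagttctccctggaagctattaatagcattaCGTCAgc
Maff, chr15:79347390-79347519, plus strand: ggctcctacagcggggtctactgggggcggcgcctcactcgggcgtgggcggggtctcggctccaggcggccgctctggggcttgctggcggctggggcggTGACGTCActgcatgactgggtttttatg
Jun, chr4:95052223-95052352, minus strand: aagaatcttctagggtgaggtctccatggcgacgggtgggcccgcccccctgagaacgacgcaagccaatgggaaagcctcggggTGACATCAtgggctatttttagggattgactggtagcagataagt
In Fos, a core began 66 bases and another 129 bases before the start site. It began 60 bases before the start in Fosb, 106 in Junb and 7 in Atf3, whose RefSeq start lies within the span of its GENCODE gene, and the element of Maff began 29 bases before the start. The windows of Fosl2 and of the first start site of Maff held none of these letters.

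Across all 7 genes, tau+/+ PTZ was the highest library, as it was for 75.7% of the table. In every member, tau-/- PTZ lay above both vehicle libraries and below tau+/+ PTZ, an order seen in 30.4% of the table. The table includes 55 genes that were lower after PTZ in tau+/+ and so could not show this order. As log2 of PTZ over vehicle within a genotype, the members had a median of 3.05 in tau+/+ and of 0.60 in tau-/-, and over all 230 genes it was 0.80 and −0.10. All 7 members were higher by over 1.5-fold after PTZ in tau+/+, a threshold that the study set and that 76.1% of the table passed in that direction, and all 7 by over 2-fold (37.0% of the table). In tau-/-, all 7 members were above vehicle by some amount (41.3% of the table), 4 of 7 were higher by over 1.5-fold (8.70%), 3 by over 2-fold (5.22%) and 0 lower by over 1.5-fold (16.5%). Because the members had large tau+/+ responses, the 85 genes higher by over 2-fold in tau+/+ are a closer background, and in tau-/- 57.6% of them were above vehicle and 18.8% higher by over 1.5-fold. Among the 175 genes past 1.5-fold in tau+/+ the latter share was 10.3%. The 4 members were Atf3, Maff, Fos and Fosb. With 1 FPKM added to every value 2 of 7 passed (5.22% of the table at that setting), Fos and Maff, and Fosb (log2 of 0.52) and Atf3 (0.58) no longer did. Without Atf3 and Maff, which were below 1 FPKM in both vehicle libraries, 2 of 5 members passed and the median tau-/- response was 0.40. The same 5 members are those with a mean of at least 5 FPKM, and 8.82% of the 102 genes of the table with such a mean passed.

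**Figure D1:**
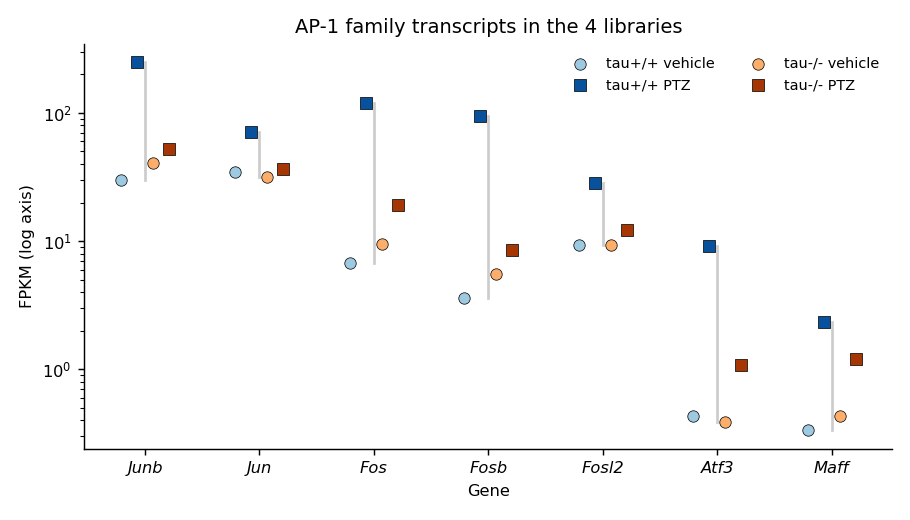
FPKM of the 7 AP-1 family genes (x axis) in each of the 4 libraries (y axis, log scale), where each point is 1 library and the grey line spans the lowest to the highest. Tau+/+ PTZ is the highest library for every gene, from 2.32 FPKM for Maff to 248 FPKM for Junb, and tau-/- PTZ is the next highest.

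Among the Fos proteins, Fos is the founding member and the usual marker of recently active neurons. Fos measured 6.80 FPKM with vehicle and 119 FPKM with PTZ in tau+/+, and 9.43 FPKM with vehicle and 19.1 FPKM with PTZ in tau-/-. Its level after PTZ was 17.5-fold that of vehicle in tau+/+ and 2.02-fold in tau-/-, and the increase in tau-/- was 8.57% of the increase in tau+/+ in FPKM. The gene lies on the plus strand of chromosome 12, chr12:85473890-85477273 of GRCm38, and its principal transcript has 4 exons.

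Fosb gives rise to a full-length protein and to a stable truncated form that builds up with repeated activity. Fosb stood at 3.63 (vehicle) and 95.4 FPKM (PTZ) in the tau+/+ libraries and at 5.57 (vehicle) and 8.45 FPKM (PTZ) in the tau-/- libraries. It had the largest tau+/+ response of the 230 genes, with a log2 of 4.72, and ranked 20 of 230 in tau-/-, with 0.60. The tau-/- increase was 3.14% of that in tau+/+, the lowest share among the members, and its 1.52-fold difference only just passed the threshold. The difference between the tau-/- and tau+/+ log2 responses was −4.11, the most negative of the 7. The gene is at chr7:19302696-19310051, minus strand. The values do not separate its splice forms.

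Fosl2 encodes Fra-2, a Fos protein that is usually induced later and for longer than Fos. It measured 9.26 FPKM with vehicle and 28.6 FPKM with PTZ in tau+/+, and 9.29 FPKM with vehicle and 12.3 FPKM with PTZ in tau-/-. The vehicle libraries were nearly level, 1.00-fold apart, so either can serve as the baseline of tau-/- PTZ with the same log2 value of 0.40 to 0.41. PTZ gave 3.09-fold the vehicle level in tau+/+ and 1.32-fold in tau-/-, and 15.5% of the increase was seen in tau-/-. The gene is at chr5:32135801-32157842, plus strand.

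Jun, which encodes c-Jun, the transactivating partner of Fos, had the smallest response of the members in either genotype. Jun stood at 34.6 (vehicle) and 71.0 FPKM (PTZ) in the tau+/+ libraries and at 31.8 (vehicle) and 36.6 FPKM (PTZ) in the tau-/- libraries. The response was 2.05-fold in tau+/+ and 1.15-fold in tau-/-. Jun, at chr4:95049034-95052222 on the minus strand, has a single exon, and 232 of its exonic bases overlap the antisense gene Junos. Whether strand was kept in counting is not given in the sources used here, so reads from those bases cannot be assigned to either gene.

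Junb encodes a Jun protein with weaker transactivation than c-Jun that can restrain it, and it was the most abundant member in every library but tau+/+ vehicle. Junb measured 29.8 FPKM with vehicle and 248 FPKM with PTZ in tau+/+, and 40.3 FPKM with vehicle and 51.9 FPKM with PTZ in tau-/-. In tau+/+ its increase of 218 FPKM was the largest of the 7 in absolute terms, and in tau-/- the increase was 11.6 FPKM, or 5.33% of it. The tau-/- value was 1.29-fold that of its own vehicle library and 1.74-fold that of tau+/+ vehicle, so Junb passed 1.5-fold only against tau+/+ vehicle. The gene is at chr8:84974484-84978718 on the minus strand, and 173 exonic bases overlap Prdx2 on the opposite strand.

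Atf3 encodes a stress-induced factor that represses as a homodimer and is known for its induction by nerve injury and seizures. Atf3 stood at 0.430 (vehicle) and 9.10 FPKM (PTZ) in the tau+/+ libraries and at 0.386 (vehicle) and 1.08 FPKM (PTZ) in the tau-/- libraries. It was 21.2-fold higher after PTZ in tau+/+ and 2.79-fold higher in tau-/-, rank 5 of the 230 genes in tau-/-. That rank rests on values near or below 1 FPKM. The gene is at chr1:191170296-191218039, minus strand.

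Maff encodes a small Maf protein that pairs with cap'n'collar factors of the Nrf2 kind. Maff measured 0.334 FPKM with vehicle and 2.32 FPKM with PTZ in tau+/+, and 0.429 FPKM with vehicle and 1.19 FPKM with PTZ in tau-/-. Its 6.95-fold response in tau+/+ stood beside 2.79-fold in tau-/-, and 38.5% of the tau+/+ increase was seen in tau-/-, the highest share of the 7. The other 6 members lay between 3.14% and 15.5%, and over the 175 genes of the table that were higher after PTZ in tau+/+ the median was −3.60%, the negative sign meaning a level below vehicle in tau-/-. Vehicle levels of Atf3 and Maff were below 1 FPKM, and FPKM values alone give no counting error for a fold change at such levels. With 1 FPKM added to every value, the log2 responses in tau-/- were 0.58 for Atf3 and 0.62 for Maff, below the 0.94 of Fos. The gene is at chr15:79346621-79359076, plus strand.

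**Figure D2:**
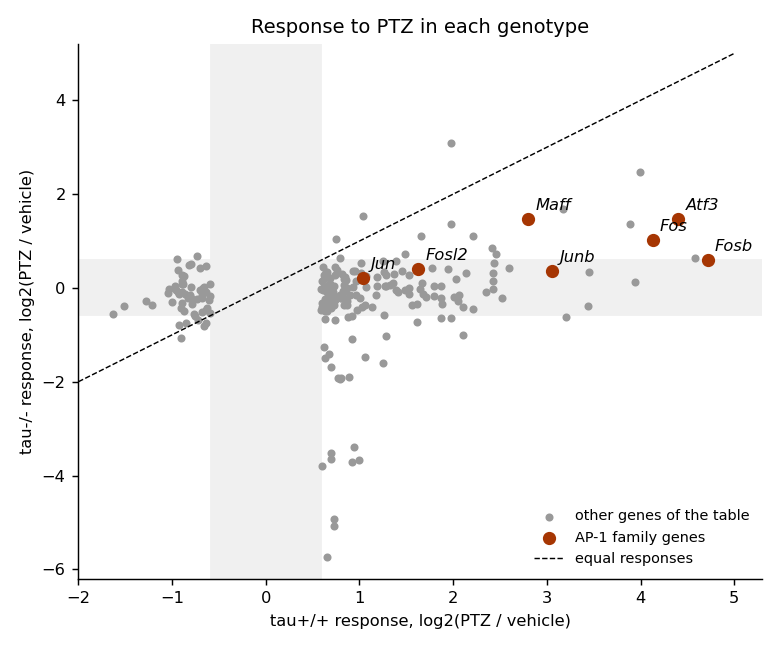
Log2 of PTZ over vehicle FPKM in tau-/- (y axis) against tau+/+ (x axis) for 229 genes of the table, with the 7 AP-1 family genes labelled, the dashed line marking equal responses and the grey bands marking less than 1.5-fold. Defb11, listed at 0 in tau-/- PTZ, is not drawn. All 7 members lie below the dashed line and above 0 in tau-/-, and Atf3 and Maff, both near or below 1 FPKM there, are the highest of them in tau-/-.

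The order of the members by response was not the same in the 2 genotypes. In tau+/+ it ran Fosb, Atf3, Fos, Junb, Maff, Fosl2 and Jun, and in tau-/- it ran Atf3, Maff, Fos, Fosb, Fosl2, Junb and Jun. Fosb led in tau+/+ and came after Atf3, Maff and Fos in tau-/-, whereas Maff came after Junb in tau+/+ and ahead of it in tau-/-. Jun was last in either order. Atf3 and Maff were level in tau-/-, with a log2 of 1.48 each, and no spread over samples is available to separate neighbours in these orders. The places of Atf3 and Maff changed with the handling of low values. With 1 FPKM added to every value, the tau-/- order began with Fos (0.94), Maff (0.62), Atf3 (0.58) and Fosb (0.52), and in tau+/+ Atf3 (2.82) came after Fos (3.94) and Junb (3.01), and Maff (1.32) after Fosl2 (1.53). Against tau+/+ vehicle, tau-/- PTZ was highest for Maff (1.84), followed by Fos (1.49) and Atf3 (1.32).

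Directly after PTZ, all 7 members were lower in tau-/- than in tau+/+ by over 1.5-fold, as were 60.4% of the 230 genes, and 5 by over 2-fold (37.0%). The log2 difference ran from −3.50 for Fosb to −0.95 for Jun, with a median of −2.25 beside −0.78 for the table. Fosb was 11.3-fold lower, Atf3 8.46-fold, Fos 6.25-fold and Junb 4.77-fold. Fosl2 was 2.33-fold lower, and Maff and Jun were 1.94-fold lower each. The tau+/+ PTZ library also entered the choice of the table, so nothing is read from this direction. After centring on the median of the other genes, 4 of 7 members stayed past 1.5-fold (23.9% of the table after the same centring), while Jun (−0.20), Maff (−0.20) and Fosl2 (−0.46) did not, and the difference between the responses of Jun turned from −0.84 to 0.10.

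The vehicle libraries differed less. The median log2 difference of tau-/- over tau+/+ vehicle was 0.36 for the members and 0.11 for all 230 genes. Fosb (1.53-fold), Fos (1.39-fold), Junb (1.35-fold) and Maff (1.28-fold) were higher in tau-/- vehicle. Only Fosb passed 1.5-fold, which 13.9% of the table did in that direction, and 0 members passed with 1 FPKM added (6.52% of the table), after centring (8.26%) or at a 2-fold threshold (4.35%). The median difference of the members was 0.10 with 1 FPKM added. Other activity-induced transcription factors had a larger median of 0.58, with 7 of 15 past 1.5-fold. Jun and Atf3 were slightly lower in tau-/- vehicle, at 0.92-fold and 0.90-fold. Tau+/+ vehicle enters this difference and the tau+/+ response alike. Against tau+/+ vehicle, tau-/- PTZ was higher by over 1.5-fold in 5 of 7 members (14.8% of the table), with Junb added to Atf3, Maff, Fos and Fosb. Jun was 1.06-fold of tau+/+ vehicle in that comparison.

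**Figure D3:**
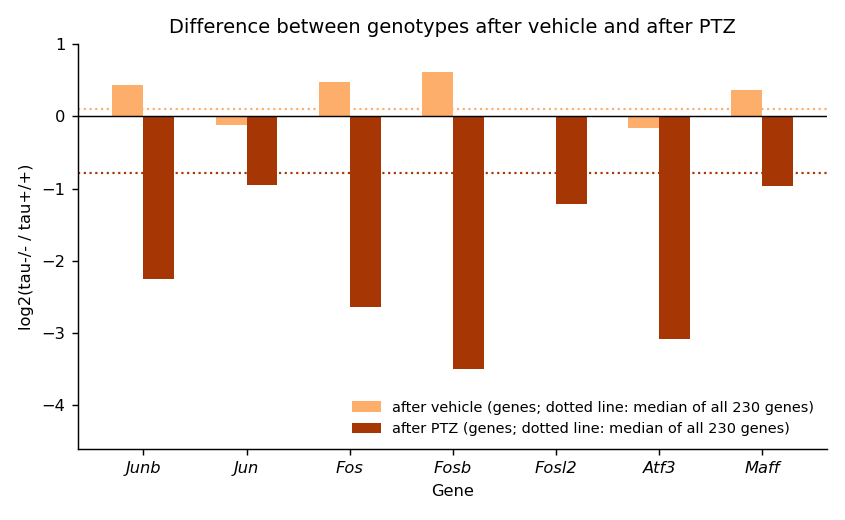
Log2 of tau-/- over tau+/+ FPKM (y axis) for each AP-1 family gene (x axis) after vehicle and after PTZ, with dotted lines at the median of all 230 genes. Differences after vehicle lie between −0.16 and 0.62, and those after PTZ between −3.50 and −0.95.

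Since FPKM is scaled to transcript length, levels can be set side by side between the members. Summed over the 7 genes, tau+/+ held 84.9 FPKM with vehicle and 573 FPKM with PTZ, and tau-/- held 97.3 and 131 FPKM. This was a 6.75-fold difference after PTZ in tau+/+ and 1.34-fold in tau-/-. In tau+/+ vehicle, Jun and Junb together made up 75.9% of the sum and Jun alone 40.8%. In tau+/+ PTZ, Junb made up 43.2%, Fos 20.8%, Fosb 16.6% and Jun 12.4%. The Fos group (Fos, Fosb and Fosl2) was 12.3-fold higher after PTZ in tau+/+ and the Jun group (Jun and Junb) 4.95-fold higher, and in tau-/- the differences were 1.64-fold and 1.23-fold.

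The ratio of Fos-group to Jun-group transcript was 0.306 in tau+/+ vehicle, 0.762 in tau+/+ PTZ, 0.337 in tau-/- vehicle and 0.449 in tau-/- PTZ. It was higher after PTZ in either genotype, and tau-/- PTZ lay nearer to the vehicle libraries than to tau+/+ PTZ. The make-up of each group also differed. Fosl2 held 47.0% of the Fos-group level in tau+/+ vehicle and 11.8% in tau+/+ PTZ, while in tau-/- its share was 38.2% with vehicle and 30.9% with PTZ. Fosb held 18.4% and 39.2% in tau+/+ vehicle and PTZ, and 22.9% and 21.2% in tau-/-. Fos held 34.5% of the Fos group in tau+/+ vehicle and 38.8% in tau-/- vehicle. After PTZ its share was higher in either genotype and nearly equal between them, 49.0% in tau+/+ and 47.9% in tau-/-. The ratio of Junb to Jun was 0.862 in tau+/+ vehicle, 3.49 in tau+/+ PTZ, 1.27 in tau-/- vehicle and 1.42 in tau-/- PTZ. Jun was above Junb in tau+/+ vehicle only. These are transcript levels in whole tissue and not amounts of protein or of dimers.

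**Figure D4:**
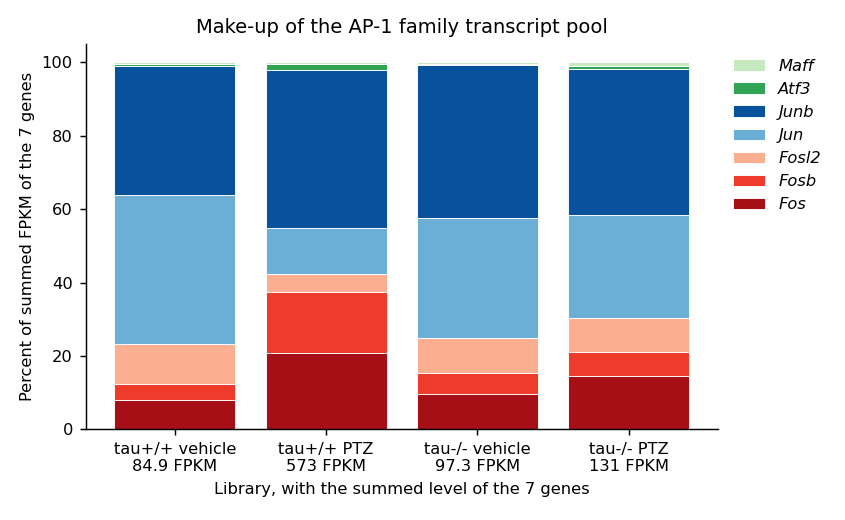
Percent of the summed FPKM of the 7 AP-1 family genes held by each gene (y axis), 1 bar per library, with the sum written below each bar. Fos and Fosb together hold more of the bar in tau+/+ PTZ (20.8% and 16.6%) than in tau-/- PTZ (14.6% and 6.47%).

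Gene length and AU-rich elements were described for the members, and neither was uniform among them. Their genes span a median of 7356 bases, beside 10996 bases for the 212 genes of the table found by symbol (92.2% of it) and 17411 bases for protein-coding genes of GENCODE M21, with a range from 3189 bases for Jun to 47744 bases for Atf3. Maff, Fosl2 and Atf3 are longer than the median of the table. AU-rich elements, which mark short-lived mRNAs, were counted in the 3′ UTR of 1 principal transcript per gene, a count that was chosen after the values were known. The pentamer ATTTA, present in 73.2% of 209 genes of the table and in 62.6% of 20866 genes, occurred in all 7, from 1 copy in Fosb to 8 in Fosl2. The median was 3.24 copies per kb for the members, 1.64 for the table and 1.16 for all genes, and Fosb, at 0.47 copies per kb, lay below all of these medians. The longer element TTATTTATT was present in 3 of 7 members (Fos, Fosl2 and Maff), in 15.3% of the table and in 7.10% of all genes.

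For each member, the 3 genes outside the family with the most similar pattern were found from the Euclidean distance of mean-centred log2 FPKM over the 4 libraries. Fos, Fosb and Atf3 had the same 3 neighbours: Npas4 (a neuronal activity-dependent factor), Egr2 (a zinc finger factor) and Btg2 (an antiproliferative gene). The closest were Btg2 for Fos, at 0.61, Npas4 for Fosb, at 0.39, and Btg2 for Atf3, at 0.38. For Junb they were Ier2, Nr4a1 and Gal, at 0.34 to 0.50. For Maff they were Apold1 (an endothelial early response gene), Zfp36 and Dusp1, at 0.33 to 0.55. Fosl2 lay closest to Ppp1r15a, Dusp6 and Pcdh8, at 0.11 to 0.29, and Jun to Naa16, Id1 and Khk, at 0.13 to 0.18. Within the family, Fos and Fosb were nearest to each other, at 0.62, as were Fosl2 and Jun, at 0.44. With 4 libraries these distances are descriptions, and 12 of the 21 places stayed with 1 FPKM added to every value and 4 of 21 with Pearson's r as the measure.

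Of 43 AP-1 and related bZIP genes listed, the table held the 7 members, Cebpb and Nfil3. Nfil3, a repressor of the circadian and immune systems, stood at 4.24 (vehicle) and 13.6 FPKM (PTZ) in the tau+/+ libraries and at 6.12 (vehicle) and 5.57 FPKM (PTZ) in the tau-/- libraries. Cebpb, a factor of inflammatory and acute-phase genes, was at 2.37, 5.78, 4.99 and 2.46 FPKM in the same order. Unlike the members, neither was above its own vehicle library in tau-/-, with log2 responses of −0.14 for Nfil3 and −1.02 for Cebpb, and Cebpb started 2.11-fold higher in tau-/- vehicle.

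Other lists stand beside the family, all of whose genes in the table were higher by over 1.5-fold in tau+/+, as were 76.1% of the table. Of the genes past 1.5-fold in tau+/+, 10.3% were higher by over 1.5-fold in tau-/- (8.70% of the table), and nothing is read from the small counts that follow. Among other activity-induced transcription factors, 15 of 19 were in the table, and in tau-/- Klf4 and Npas4 (2 of 15) passed 1.5-fold upward and 0 downward. As a group they had a median log2 of 1.87 in tau+/+ against 0.10 in tau-/-, from −0.39 for Egr4 to 1.12 for Klf4. Of 11 genes of ERK pathway feedback, 6 were in the table, with a median of 1.79 in tau+/+ and 0.10 in tau-/-, from −0.48 for Dusp4 to 1.11 for Dusp1, a phosphatase of MAP kinases and the only gene of the 6 past 1.5-fold in tau-/-. Of 8 genes for binding of AU-rich elements, Zfp36 and Zfp36l2 were in the table, with a log2 of 2.41 in tau+/+ and 0.86 in tau-/- for Zfp36, and of 0.75 and 1.04 for Zfp36l2. Of 24 genes described as AP-1 targets, 10 were in the table. Their median was 1.15 in tau+/+ and 0.03 in tau-/-, and Sik1, at 0.73, was the only 1 of 10 past 1.5-fold in tau-/- (10.3% of the genes past 1.5-fold in tau+/+), with Rcan1 the lowest at −0.41.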

How the data were processed

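RNA of 4 brain libraries, 1 per condition, was sequenced by the authors, who aligned read pairs to GRCm38/mm10 with TopHat2 2.03 and Bowtie2 2.0.0.6 and ran Cuffdiff 2.01. The deposited FPKM values, for 230 genes that the authors selected, were used as given. Depth per library could not be recovered from these fitted values, so no counting interval is given. The 4 deposited columns of the authors' own fold changes and p-values were not used.

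Log2 ratios were computed without a pseudocount, in Python 3.11.15 with numpy 2.4.6, pandas 2.3.3 and matplotlib 3.10.9. Genes were called past 1.5-fold. Defb11, listed at 0 in tau-/- PTZ, was ranked lowest in medians. No test was possible with 1 library per condition. The members and gene lists were chosen with earlier results of these data known. All members, the 3 nearest genes of each, every bZIP gene of the table, the extremes of each pathway list and, among cell type markers, Ttr, Fabp7 and Klf2 are named. Coordinates are from GENCODE M21 (GRCm38) and promoter windows from RefSeq (GRCm38.p6). The code recovered the known answer in 8 of 8 checks when tested on simulated data. Alternatives were pseudocounts of 0.1 and 1 FPKM, means of at least 1 or 5 FPKM, a 2-fold threshold, tau+/+ vehicle as baseline, centring on the other genes and geometric means.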

Additional observations from a re-analysis of the deposited data

Results flagged for a closer look

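Among the AP-1 family genes, their nearest genes, the other bZIP genes and Ttr, only Cebpb and Ttr lay past 1.5-fold in opposite directions in the 2 genotypes. The difference was not tested, since each condition has 1 library. Cebpb had a log2 response of 1.29 in tau+/+ but −1.02 in tau-/-. Ttr, the most abundant choroid plexus marker of the table, had 0.73 in tau+/+ but −5.07 in tau-/-, and all 10 choroid plexus markers showed this order of directions.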

How the results depend on the processing

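No paired analysis was possible because each condition has 1 library, and leaving out a replicate was not possible for the same reason. With 1 FPKM added to every value, the median log2 response of the members was 2.82 in tau+/+, the median difference between responses was −2.24, and the median difference between genotypes after vehicle was 0.10. With 1 FPKM added, 2 members passed 1.5-fold in tau-/- (5.22% of the table) and 0 between genotypes after vehicle (6.52%), as did 0 after vehicle with a threshold of 2-fold (4.35%). A mean of at least 5 FPKM, which removes Atf3 and Maff, and leaving out those 2 genes, chosen after seeing the data, each gave a median tau-/- response of 0.40 and 2 members past 1.5-fold. With tau+/+ vehicle as baseline, the median tau-/- response was 1.22.

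Centring on the other 223 genes subtracts a median log2 of 0.77 in tau+/+, −0.13 in tau-/-, 0.11 after vehicle and −0.76 after PTZ, which for a table selected on tau+/+ PTZ removes part of the response itself. The medians were then 2.29 in tau+/+, 0.74 in tau-/-, −1.75 for the difference between responses, 0.26 after vehicle and −1.50 after PTZ, with 0 members past 1.5-fold after vehicle (8.26% of the table) and 4 after PTZ (23.9%). The difference between the responses of Jun turned from −0.84 to 0.10, and the near-level vehicle difference of Fosl2 from 0.005 to −0.10. From geometric means, the ratio of Fos group to Jun group was 0.190 in tau+/+ vehicle, 0.518 in tau+/+ PTZ, 0.220 in tau-/- vehicle and 0.288 in tau-/- PTZ, in the same order. Of 112 recomputed values of single members, 49 stayed within 0.1 on the log2 scale, and 2 changed sign, those of Jun and Fosl2.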
